A study of Mus musculus with 6 samples.

Results

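S-phase germinal center (GC) B-cells were described here as 2896 single cells from 6 mouse libraries, 13.4% of the 21568 retained cell barcodes and 23.3% of the 12446 B cells that passed the same B cell gate. Members were chosen by their own transcripts. A retained barcode had at least 500 detected genes and under 10% mitochondrial unique molecular identifiers (UMIs). The B cell gate asked for at least 3 UMIs of Cd79a, Cd79b and Ms4a1 together, under 2 of Ly6d, 0 of the Cd3 chains, 0 of Myc and immunoglobulin transcripts under 8% of UMIs. A gated cell was a member if at least 4 of 8 S genes (Mcm3, Mcm5, Mcm6, Pcna, Rrm2, Slbp, Dut and Tyms) were detected and fewer than 4 of 8 G2/M genes (Top2a, Mki67, Cdc20, Ccnb1, Ccnb2, Cenpa, Cenpf and Ube2c). Those 16 genes therefore describe the members and are not results.

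The study sorted splenic cells 8 days after mice were immunized with sheep red blood cells and measured them by 10x Genomics 3′ single cell RNA-seq. Every mouse carried the Cγ1-Cre allele, a Cre recombinase expressed in B-cells that enter the GC reaction, and every library is labelled as GC B cells. Per the labels, 3 libraries were Smc3 wild-type controls (Smc3 wt/wt) and 3 were Smc3 heterozygous (labelled Smc3 +/-, written Smc3 wt/- here). Deletion is thus limited to cells in which Cre was active. Age, sex and the number of mice behind a library are not given in the labels, so p-values measure the spread between libraries.

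GC B-cells are among the fastest dividing cells of an adult mammal. In the dark zone they divide and acquire mutations in their immunoglobulin genes, and in the light zone they present antigen to T cells. During S phase the genome is copied once: origins licensed in G1 are opened by the MCM helicase, DNA polymerases copy both strands, histones package the new DNA, and cohesin, whose ATPase subunits are Smc1a and Smc3, is locked around the sister chromatids by the acetyltransferase Esco2.

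There were 164, 844 and 669 members in replicates 1, 2 and 3 of Smc3 wt/wt and 475, 21 and 723 in those of Smc3 wt/-, and values per library are given in this order throughout. The median member had 3479 to 5231 UMIs per library and 1538 to 1961 detected genes, and the summed UMIs of members ran from 85288 to 4122472. The smallest sum was that of Smc3 wt/- replicate 2, in which only 160 of 3679 retained barcodes passed the B cell gate. Its members stood apart: the correlation of log CPM over genes with the members of another library was 0.878 to 0.904, against 0.966 to 0.993 among the other 5. Of its members, 71.4% (15 of 21) had a UMI of the GC genes Mef2b or Rgs13, against 93.9% to 98.1% in the other libraries. Klf2, a transcription factor of naive and memory B-cells, was at 328 CPM (UMIs of the gene scaled to 1000000 UMIs of the summed class) in its members and at 28.4 to 35.0 CPM elsewhere, and the lysozyme gene Lyz2 at 246 CPM against 1.02 to 3.33. Results that rest on this library are given with and without it. Y-linked transcripts were at 150 to 193 CPM in 3 libraries (Smc3 wt/wt replicates 1 and 2 and Smc3 wt/- replicate 2) and at 0 in the others. Members shared 3 cell barcodes over all 15 pairs of libraries.

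Markers of other cells were low in members of most libraries. The summed level of 6 T cell genes was at most 4.998 CPM, with Il7r at 0 in every library. Of 8 myeloid genes, S100a9, Itgam, Elane and Mpo were at 0 in all, and the sum was 7.03 to 270 CPM, highest in Smc3 wt/- replicate 2. Erythroid genes summed to 98.3 to 586 CPM, plasma cell genes to 123 to 152 CPM and naive or memory B cell genes to 160 to 680 CPM. Their part in the results below was not tested.

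Members were compared with 2 other classes of the same gate. The G2/M class held 6151 cells with at least 4 of the 8 G2/M genes, and the non-cycling class held 1638 cells with at most 1 gene of each set. A further 1761 gated cells belonged to no class. Many S genes were also detected in G2/M cells: of the gated cells with at least 4 S genes, 5037 (63.5%) also had at least 4 G2/M genes and were not members. Of the members, 418 (14.4%) had all 8 S genes and 587 (20.3%) had no G2/M gene. Just inside the boundary on S genes were 506 members with 4 of them, just outside 580 cells with 3. Across the other boundary, 678 members had 3 G2/M genes and 719 excluded cells had 4. Depth differed between the classes in the same order as the cycle genes, with median UMIs per cell of 1752 to 3033 in non-cycling and 4769 to 8270 in G2/M cells. Because detection of a gene depends on depth, classes were also formed after thinning each cell to 2000 UMIs, which left out 838 of 10653 Smc3 wt/wt and 1081 of 10915 Smc3 wt/- barcodes, and by gating on a random fraction of 0.5 of the UMIs and measuring the remainder. In the thinned cells 4540 met the rule. The B cell gate and the class rules were read again from the drawn UMIs, so class membership changed along with depth. In Smc3 wt/wt replicate 2, S-phase cells went from 844 to 1252 and G2/M cells from 1753 to 1165. Thinned cells were gated and measured on the same UMIs.

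The genes of the rule had the levels it asks for. Mcm6, a subunit of the replicative helicase, was at 668, 571 and 602 CPM (wt/wt) and 687, 492 and 591 CPM (wt/-), with 15.4 to 37.3 CPM in non-cycling and 208 to 378 CPM in G2/M cells. Slbp, which binds the stem-loop of histone mRNAs, was at 1131, 814 and 805 CPM (wt/wt) and 1217, 703 and 907 CPM (wt/-). For Rrm2, the regulated subunit of ribonucleotide reductase, members held 305 to 567 CPM and G2/M cells 304 to 674 CPM, so this S gene was not higher in members. Dut, the dUTPase, was at 434 to 549 CPM in members. The marker Pclaf, a partner of the sliding clamp PCNA, was not read by the rule. It was at 1423, 993 and 960.2 CPM (wt/wt) and 1402, 1032 and 1073 CPM (wt/-). The range was 0 to 66.9 CPM in non-cycling and 1728 to 2156 CPM in G2/M cells, so that members lay between the other classes in all 6 libraries, an order that 4.51% of all tested genes had in all 6. On the log2 scale Pclaf was 4.34 ± 0.09 (SE, 6 libraries) above non-cycling cells and -0.82 ± 0.05 relative to G2/M cells. After thinning, the latter was -0.01.

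A class chosen by its transcripts must differ from the rest of its gate, so the differences between classes below are descriptions without p-values. They come from summed UMIs per library and class, fitted with edgeR with the library as a block, and are log2 fold changes ± SE over 6 libraries. Relative to non-cycling cells, 43.7% of 8052 tested genes passed an adjusted p of 0.05 (22.9% higher and 20.8% lower in members), and relative to G2/M cells 45.5% did (22.7% higher and 22.8% lower). The median over all tested genes was -0.02 and 0.01. Counts of genes past the threshold are set beside these shares, and nothing is read from them about single lists.

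In 229 of the tested genes, or 2.84%, members were above both other classes, and in 122, or 1.52%, below both. With the same direction in all 6 libraries and a mean of at least 50 CPM over members and non-cycling cells, 55 genes remained, of which 16 belonged to the lists described below. The 10 with the highest difference from non-cycling cells were Ung, Lig1, Gins2, Prim1, E2f1, Orc6, Hells, Cdca7, Rpa2 and Mcm4. Of these, Lig1, Gins2, Prim1, Orc6, Rpa2 and Mcm4 belong to the DNA replication machinery.

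Ung (chr5:114130386-114139323, plus strand, GRCm38) encodes the uracil-DNA glycosylase that removes uracil from DNA. It was at 183, 139 and 136 CPM (wt/wt) and 178, 106 and 143 CPM (wt/-). All members' levels were above the highest G2/M level of 82.0 CPM, and non-cycling cells had at most 23.1 CPM. The difference was 4.28 ± 0.15 from non-cycling and 1.21 ± 0.06 from G2/M cells, the highest of the 55 genes against both classes. With gating and measuring on separate UMIs it was 3.76 and 1.40, and after thinning 3.33 and 2.65.

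E2f1 (chr2:154559407-154569892, minus strand) encodes a transcription factor that drives entry into S phase. Members had 167, 89.3 and 98.8 CPM (wt/wt) and 147, 117 and 95.5 CPM (wt/-). The genotypes overlapped, and every library was above all G2/M levels, which were 21.3 to 63.6 CPM. E2f1 was 3.36 ± 0.17 above non-cycling and 1.01 ± 0.06 above G2/M cells.

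Cdca7 (chr2:72476159-72486893, plus strand), a partner of the chromatin remodeller Hells, varied least of the 3 genes that were more than 1 log2 unit above G2/M cells. Its level was 168, 178 and 188 CPM (wt/wt) and 171, 164 and 190.01 CPM (wt/-), all within 164 to 190.01 CPM. G2/M cells held 31.97 to 90.6 CPM. The differences were 3.06 ± 0.12 and 1.05 ± 0.06. Hells itself was at 203 to 302 CPM in members and 123 to 198 CPM in G2/M cells.

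Lig1, the ligase that seals Okazaki fragments, was at 332, 304 and 287 CPM (wt/wt) and 330.03, 258 and 301 CPM (wt/-). Its differences were 4.23 ± 0.12 and 0.24 ± 0.05. Prim1, the primase subunit that starts each DNA strand, was at 123, 129.5 and 152 CPM (wt/wt) and 144, 152 and 144 CPM (wt/-). It differed by 3.49 ± 0.14 and 0.26 ± 0.06. G2/M cells held 159.8 to 257 CPM of Lig1 and 95.9 to 117 CPM of Prim1. The differences from G2/M cells grew to 0.56 and 0.59 on separate UMIs and to 0.93 and 0.88 after thinning.

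**Figure D1:**
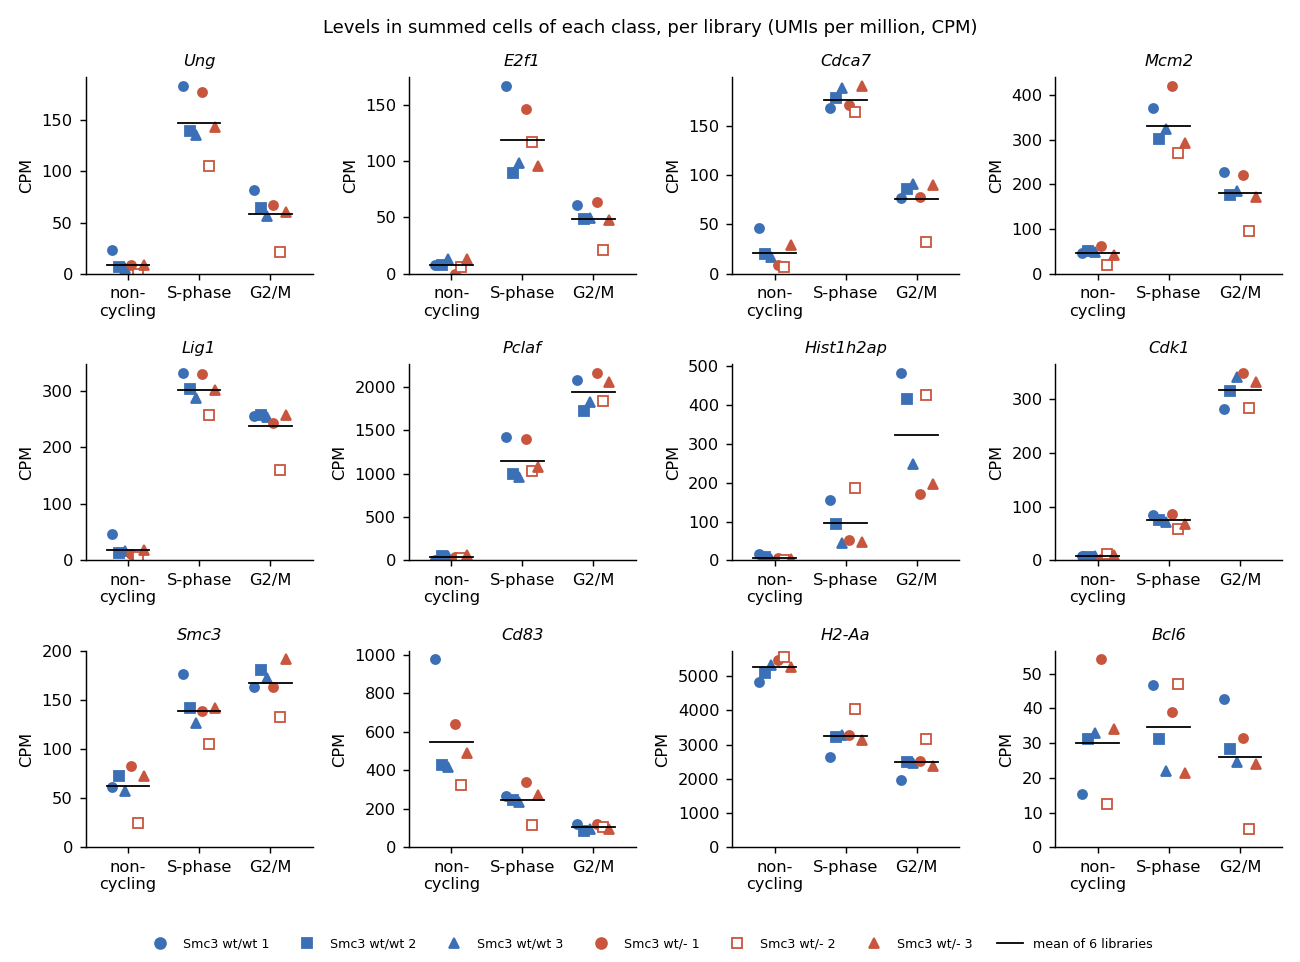
Levels of 12 genes in CPM (vertical axes) in summed non-cycling, S-phase and G2/M B cells of the gate (horizontal axes). Each point is a library, blue for Smc3 wt/wt and red for Smc3 wt/-, the open square is Smc3 wt/- replicate 2, and the bar is the mean of 6 libraries. Ung, E2f1, Cdca7 and Mcm2 peaked in S-phase cells, Pclaf, Hist1h2ap and Cdk1 were highest in G2/M cells, and Cd83 and H2-Aa were highest in non-cycling cells.

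Promoters of such genes are shown because transcription factors of the E2F family bind a short core in many genes of DNA replication. RefSeq promoters (GRCm38.p6, 250 bases before to 50 after the start) were searched on both strands for the letters GCGGGA, for the variant GCGCCA and for the variant GCGCGA, whose matches can overlap. Of the 55 genes, 48 matched an entry and 37 of these (77.1%) held a core in at least 1 of their entries, against 62.5% of 6404 tested genes with an entry. Counted as single entries, which is another unit, 31.4% of all 32851 promoters of that table held one. All 8 S genes of the rule held one. Of the 10 leading genes, 8 had an entry and 5 held a core. The 4 shown had a single entry and a core, and all lie on the plus strand, at chr10:128014965-128015264 for Prim1, chr19:38930740-38931039 for Hells, chr2:72475969-72476268 for Cdca7 and chr4:132768110-132768409 for Rpa2. Capitals mark the cores.
Prim1: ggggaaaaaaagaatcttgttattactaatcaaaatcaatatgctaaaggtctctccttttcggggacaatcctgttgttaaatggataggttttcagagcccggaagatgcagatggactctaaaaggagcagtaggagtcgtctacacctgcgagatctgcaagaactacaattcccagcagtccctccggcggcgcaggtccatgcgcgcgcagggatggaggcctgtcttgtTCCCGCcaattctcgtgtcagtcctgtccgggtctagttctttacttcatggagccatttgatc
Hells: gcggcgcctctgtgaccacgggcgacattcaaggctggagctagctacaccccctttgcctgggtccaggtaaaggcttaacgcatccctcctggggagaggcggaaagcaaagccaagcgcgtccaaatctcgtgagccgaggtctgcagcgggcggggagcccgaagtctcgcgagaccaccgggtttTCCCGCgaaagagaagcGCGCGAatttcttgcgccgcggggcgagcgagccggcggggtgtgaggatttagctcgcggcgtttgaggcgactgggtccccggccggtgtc
Cdca7: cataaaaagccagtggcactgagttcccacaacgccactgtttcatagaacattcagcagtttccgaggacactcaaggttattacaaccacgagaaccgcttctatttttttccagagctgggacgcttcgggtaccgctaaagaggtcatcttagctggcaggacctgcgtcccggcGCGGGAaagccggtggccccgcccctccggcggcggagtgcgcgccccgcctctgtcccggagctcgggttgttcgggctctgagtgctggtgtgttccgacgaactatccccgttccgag
Rpa2: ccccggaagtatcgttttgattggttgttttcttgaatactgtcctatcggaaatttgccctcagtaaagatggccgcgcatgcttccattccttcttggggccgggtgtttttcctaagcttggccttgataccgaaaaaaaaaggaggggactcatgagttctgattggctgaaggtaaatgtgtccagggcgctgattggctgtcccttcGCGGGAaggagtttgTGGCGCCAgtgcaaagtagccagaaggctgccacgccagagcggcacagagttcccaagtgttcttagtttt
The promoter of Prim1 had 1 core, as TCCCGC, which is GCGGGA on the other strand. That of Hells had 2, that of Cdca7 1 and that of Rpa2 3, some of which overlap. The single entries of Ung, E2f1 and Orc6 held none of these letters in the window.

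Genes of origin licensing and the replicative helicase were higher in members than in non-cycling cells for 20 of 21 tested list genes (of 22), with a median of 2.98. Relative to G2/M cells 8 were higher and 3 lower, with a median of -0.01, and 8 were above both classes. Mcm2, a helicase subunit outside the rule, was at 369.8, 302 and 324 CPM (wt/wt) and 419.6, 269.7 and 293 CPM (wt/-). Every library was above all G2/M levels of 95.9 to 228 CPM, and the differences were 2.69 ± 0.09 and 0.78 ± 0.05. Mcm4, another subunit, was at 260.5 ± 53.7 CPM (SD, n = 6) in members and 154 ± 39.3 CPM in G2/M cells. Gins2 of the GINS complex, which joins MCM and Cdc45 in the active helicase, was at 89.96, 88.1 and 97.1 CPM (wt/wt) and 135, 141 and 99.03 CPM (wt/-). Orc6, a subunit of the origin recognition complex, differed by 3.18 ± 0.12 and 0.25 ± 0.05. Cdt1, which loads MCM onto origins, was 0.57 ± 0.06 above G2/M cells. The loading factor Cdc6 had 1 UMI in all non-cycling cells together, so no fold is given, and 91.6, 65.7 and 71.9 CPM (wt/wt) and 90.6, 93.8 and 74.6 CPM (wt/-) in members. Dbf4, the activating subunit of the Cdc7 kinase, went the other way, at -1.49 ± 0.07 relative to G2/M cells.

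Polymerases and fork proteins were higher than in non-cycling cells in all 32 genes of the list, with a median of 2.18. Relative to G2/M cells, 14 were higher and 8 lower, with a median of 0.07. Rpa2, of the complex that coats single-stranded DNA, was at 219.9, 155 and 149 CPM (wt/wt) and 189, 129 and 159 CPM (wt/-), which was 3.01 ± 0.12 and 0.44 ± 0.05 from the other classes. Pole4, a small subunit of polymerase epsilon, was at 289 ± 14.3 CPM in members, 168 ± 21.003 CPM in non-cycling and 184 ± 20.7 CPM in G2/M cells. Across these replication lists, 16 tested genes had under 10 UMIs in all non-cycling cells together, and folds of such genes are not given.

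After thinning, 17.3% of all tested genes were higher and 15.4% lower in members than in G2/M cells. In that fit 14 of 20 tested licensing genes were higher and 1 lower than in G2/M cells, with a median of 0.64, and 26 of the 32 fork genes were higher and 1 lower, with a median of 0.65. With separate UMIs for gating and measuring, 18.0% of all tested genes were higher and 17.9% lower. There 13 licensing genes were higher and 2 lower (median 0.36), and 25 fork genes higher and 3 lower (median 0.35). Single genes moved too: of 55 genes named for a class difference that passed relative to G2/M cells, thinning moved the difference of 44 by over 1.5 times. It was 1.68 for E2f1, 1.67 for Cdca7, 1.43 for Mcm2 and 1.41 for Rpa2 after thinning. Orc6, Cdt1, Ccne2, Chaf1b and Msh6 were then at 0.92, 0.93, 1.86, 1.03 and 0.78. Among genes lower than in G2/M cells it was -1.40 for Ccna2, -1.55 for Birc5, -0.50 for H2afz, -0.39 for Cdca5 and -0.22 for Smc1a.

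Genes of nucleotide supply were higher in members than in non-cycling cells for 18 of 19, with a median of 1.26. The exception was Samhd1, which degrades deoxynucleotides, at -0.24 ± 0.05. Relative to G2/M cells, 2 were higher and 8 lower. Rrm1, the large subunit of ribonucleotide reductase, was at 201 ± 34.7 CPM in members and 309 ± 52.2 CPM in G2/M cells. The difference of -0.78 was -0.28 on separate UMIs and -0.07 after thinning. Tk1, thymidine kinase, was -0.59 ± 0.06 relative to G2/M cells, and its sign turned after thinning, to 0.32. Among 17 genes of chromatin replication, 17 were higher than in non-cycling cells (median 1.83), and 5 were higher and 8 lower than in G2/M cells. Chaf1b, of the complex that deposits histones behind the fork, was 0.38 ± 0.06 above G2/M cells. The histone variants H2afz and H2afx were lower in members, with differences of -1.06 ± 0.04 and -1.87 ± 0.05.

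Replication dependent histone genes were not highest in the members. Only 20 of the 67 list genes had enough UMIs to be tested, 12 of which were higher and 1 lower than in non-cycling cells, with a median of 1.10. All 20 were lower in members than in G2/M cells, with a median of -1.56. Hist1h2ap was at 155, 93.9 and 45.7 CPM (wt/wt) and 53.7, 188 and 48.6 CPM (wt/-). Its libraries varied widely within each class, with 171 to 481 CPM in G2/M cells. It differed by 3.44 ± 0.21 and -2.07 ± 0.07, the latter being -0.98 on separate UMIs and -0.50 after thinning. Hist1h1b, a linker histone, was at 79.96, 68.6 and 50.4 CPM (wt/wt) and 62.9, 129 and 67.1 CPM (wt/-) and at 159 to 283 CPM in G2/M cells. These mRNAs mostly end in a stem-loop without a poly(A) tail and are poorly captured by oligo(dT) priming, and the part of that in the values was not tested. After thinning, 13 of 23 were lower and 0 higher (median -0.45), and with separate UMIs 17 of 21 were lower and 0 higher (median -0.78).

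Regulators of the G1/S transition were higher than in non-cycling cells for 17 of 19 tested genes (of 20), with a median of 1.68. The cyclin gene Ccnd2 was lower. Ccne2, a cyclin of S phase entry, was at 147, 58.7 and 59.2 CPM (wt/wt) and 106, 82.1 and 60.4 CPM (wt/-) and 0.34 ± 0.06 above G2/M cells. Ccna2, the cyclin of late S phase and G2, was -2.59 ± 0.07 relative to G2/M cells. Cdk2, the kinase these cyclins activate, was at 99.3 ± 43.8 CPM in members and 77.6 ± 21.7 CPM in G2/M cells.

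Of 20 tested genes of replication stress and repair, 16 were higher and 0 lower than in non-cycling cells (median 1.54). Relative to G2/M cells, 5 were higher and 6 lower. Besides Ung, the mismatch repair gene Msh6 was above both classes, at 88.3, 60.4 and 67.2 CPM (wt/wt) and 75.2, 46.9 and 64.9 CPM (wt/-), with differences of 1.41 ± 0.13 and 0.36 ± 0.06. Chek1, the checkpoint kinase of stalled forks, had 5 UMIs in non-cycling cells and 24.7 to 39.4 CPM in members. Brca1, Brca2, Exo1 and Topbp1 differed from G2/M cells by -0.09, -0.01, -0.16 and -0.03, all short of the threshold. Their signs turned after thinning, to 0.76, 0.65, 0.87 and 0.27, and on separate UMIs, to 0.57, 0.15, 0.38 and 0.15.

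Genes of the cohesin core were between the other classes or level with G2/M cells. All 5 core genes were higher than in non-cycling cells, with a median of 0.69, and 3 were lower than in G2/M cells. Of all 8052 tested genes, 886 were likewise higher than in non-cycling and lower than in G2/M cells. Smc1a was at 165, 186 and 189 CPM (wt/wt) and 132, 234 and 174 CPM (wt/-), with differences of 1.26 ± 0.08 and -0.45 ± 0.05. Rad21, the kleisin that closes the ring, was at 109.9, 69.4 and 68.1 CPM (wt/wt) and 75.2, 70.3 and 65.8 CPM (wt/-). It was 0.48 ± 0.10 above non-cycling cells and -1.24 ± 0.06 relative to G2/M cells. Smc3 differed by 1.002 ± 0.09 and -0.37 ± 0.06, the latter turning to 0.10 after thinning. Esco2 was at 93.3, 104 and 93.8 CPM (wt/wt) and 134, 93.8 and 110.03 CPM (wt/-). Non-cycling cells held 0 to 10.5 CPM and G2/M cells 149 to 189 CPM, a difference of -0.80 ± 0.06 that turned to 0.11 after thinning. Cdca5 (sororin), which protects cohesin from release, was 3.08 ± 0.27 and -1.48 ± 0.08. The loader genes Nipbl and Mau2 were lower than in non-cycling cells, with differences of -0.31 ± 0.09 and -0.55 ± 0.12, but Nipbl was at -0.02 on separate UMIs, -0.18 after thinning and -0.20 without Smc3 wt/- replicate 3, none past the threshold.

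Mitotic genes that the rule did not read were between the other classes. All 16 were higher than in non-cycling cells (median 2.46) and lower than in G2/M cells (median -2.36), an order that 886 of all 8052 tested genes had. The classes were formed by counting other G2/M genes, so this order is a description and not a test. Cdk1, the mitotic kinase, was at 84.96, 75.7 and 70.6 CPM (wt/wt) and 86.5, 58.6 and 68.4 CPM (wt/-) and at 280.2 to 347 CPM in G2/M cells. Birc5 (survivin) was 2.02 ± 0.13 and -2.46 ± 0.05. Their promoters held an E2F core in 8 of 13 genes with an entry (61.5%), near the 62.5% of tested genes with an entry. The letters TTTGAA of the CHR element, which is found in many mitotic genes, were also in 8 of 13 (61.5%), against 14.9% of those tested genes.

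**Figure D2:**
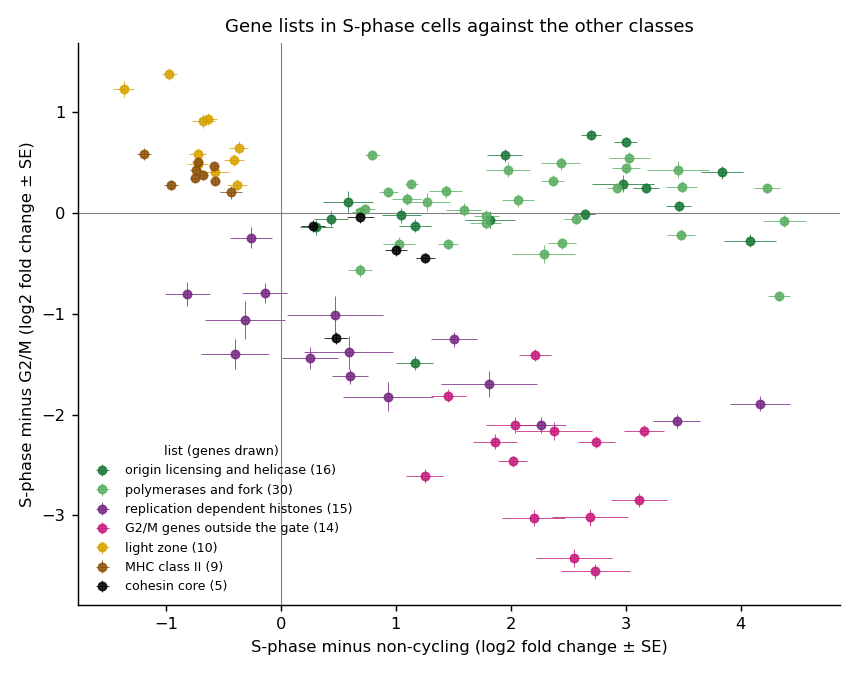
Log2 fold change ± SE of list genes in S-phase cells relative to non-cycling cells (horizontal) and to G2/M cells (vertical), 6 libraries, for genes with at least 10 UMIs in non-cycling cells. Licensing and fork genes lie to the right around 0 on the vertical axis, histones and mitotic genes lie below 0, and the light zone and MHC class II genes fill the upper left, below non-cycling and above G2/M cells.

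The germinal center programme was expressed in the members. Mef2b was detected in 57.7% to 72.6% of thinned S-phase cells in 5 libraries and in 25.7% (9 of 35) in Smc3 wt/- replicate 2. In cells with Cd3 transcripts, which should lack it, Mef2b was found in 2 of 161 cells thinned to the same depth. Of 15 GC identity genes, 2 were higher and 8 lower than in non-cycling cells, and 8 were higher and 4 lower than in G2/M cells. Gcsam, which slows B-cell migration, was higher than in non-cycling and lower than in G2/M cells, with differences of 0.61 ± 0.08 and -0.57 ± 0.06. Bcl6, the master repressor of the GC programme, was at 46.6, 31.3 and 21.9 CPM (wt/wt) and 38.9, 46.9 and 21.5 CPM (wt/-), and neither difference passed. Ebf1 and Pou2f2, B lineage transcription factors, differed by -0.45 ± 0.05 and -0.44 ± 0.06 from non-cycling cells and by 0.48 ± 0.04 and 0.47 ± 0.05 from G2/M cells, the latter 0.14 and 0.18 after thinning.

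Light zone genes shared one order. All 10 tested (of 11) were lower in members than in non-cycling cells and higher than in G2/M cells, with medians of -0.66 and 0.62, where 9.45% of all tested genes had this order. Cd83, an activation marker of light zone cells, was at 268, 246 and 237 CPM (wt/wt) and 338, 117 and 271 CPM (wt/-), lowest in Smc3 wt/- replicate 2. Non-cycling cells held 323 to 977 CPM and G2/M cells 87.3 to 120.2 CPM. The differences were -0.97 ± 0.07 and 1.38 ± 0.06. Cd86, a co-stimulatory ligand, differed by -0.64 ± 0.08 and 0.93 ± 0.06. Fcer2a (CD23) differed by -1.37 ± 0.09 and 1.23 ± 0.08. After thinning 8 of the 10 were higher than in G2/M cells and 0 lower, with a median of 0.33, and Cd83, Cd86 and Fcer2a were at 0.82, 0.56 and 0.35.

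All 9 MHC class II genes had the same order, with medians of -0.72 and 0.37. H2-Aa, a chain of the I-A molecule, was at 2630.4, 3213 and 3287 CPM (wt/wt) and 3278, 4057 and 3131 CPM (wt/-). Cd74, the invariant chain, was at 34143 ± 4715 CPM in non-cycling cells, 21021 ± 2094 CPM in members and 15247 ± 2264 CPM in G2/M cells. The difference from G2/M cells depended on how depth was treated. After thinning 2 genes were higher and 1 lower, near the 17.3% and 15.4% of all tested genes, with a median of 0.04 and H2-Aa at -0.01. With gating and measuring on separate UMIs 7 were higher and 0 lower, with a median of 0.29 and H2-Aa at 0.23. Naive or memory B cell genes were lower in members than in non-cycling cells in 8 of 8 tested (of 9), with a median of -2.30, and summed to 566 to 1765 CPM in the non-cycling class. In that class, cells with a GC transcript made up 72.5% to 84.4% in 5 libraries and 37.7% in Smc3 wt/- replicate 2. Their part in the differences from non-cycling cells was not tested. With every class restricted to cells with such a transcript, genes moved in both directions or little. Ung was at 4.496 and Cd83 at -0.97. Fcer2a went from -1.37 to -1.24, H2-Aa from -0.75 to -0.68 and Atf7ip from -0.64 to -0.55, while Kmt2d went from -0.71 to -0.79.

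Within the members, cells with more G2/M genes had more histone and Pclaf transcripts. Library values are given as the mean ± SD of 5 libraries, without Smc3 wt/- replicate 2, whose members were too few to divide. The summed level of replication dependent histones was 159.7 ± 46.1 CPM in members with 0 G2/M genes, 222 ± 57.2 with 1, 408 ± 67.3 with 2 and 714 ± 88.9 with 3. It was 1027 ± 222 CPM just outside, in cells with 4. Pclaf went from 394 ± 207 to 1836 ± 224 CPM over the same members. From 1 to 3 genes each step in both was larger than the SD of the libraries in the bins it joins. Esco2 went from 32.1 ± 16.7 to 188 ± 26.6 CPM, and Cdk1 from 31.2 to 139 CPM. Licensing genes summed to 1597 ± 297 and 2349.6 ± 142 CPM at the ends. Ung had no single direction, at 134 ± 70.004, 141 ± 33.5, 177 ± 24.9 and 162 ± 11.01 CPM, with the highest mean in members with 2 G2/M genes. Light zone genes went the other way, with a sum of 1226 ± 85.8 CPM at 0 and 829 ± 47.9 CPM at 3 G2/M genes. Smc3 was at 113 ± 21.7 and 160.2 ± 10.5 CPM.

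**Figure D3:**
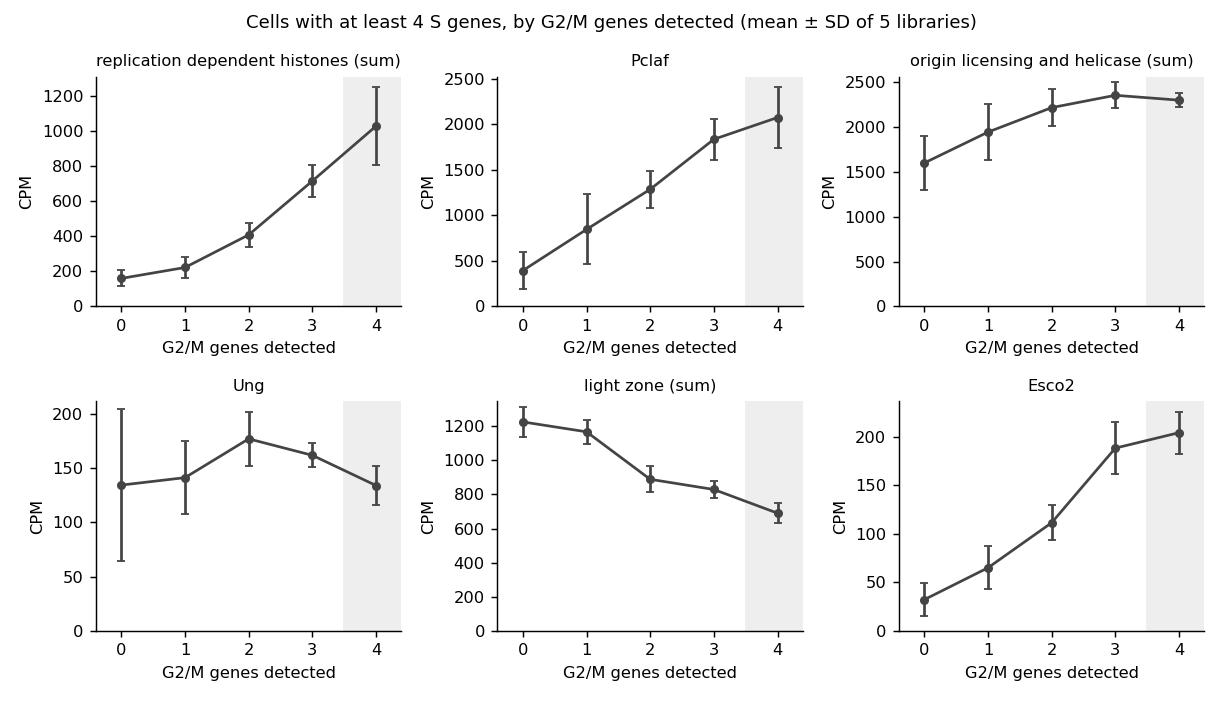
Levels in CPM (vertical axes; mean ± SD of 5 libraries, without Smc3 wt/- replicate 2) in cells with at least 4 S genes, by the number of G2/M genes detected (horizontal axes). The shaded bin, 4 genes, lies outside the members. Histones, Pclaf and Esco2 climb across the members, the mean of Ung is highest at 2 G2/M genes, and the light zone sum goes down.

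Members were also divided by the number of S genes. Between members with 4 and with 8 of the S genes, Pclaf was at 296 and 2125 CPM, Ung at 67.2 and 212 CPM, and Mcm2 at 257 and 397 CPM. Replication dependent histones summed to 213 ± 45.6 and 752 ± 179 CPM and light zone genes to 1218 ± 48.4 and 830.4 ± 94.5 CPM, each in the direction seen along the G2/M genes. Ung, which had no single direction there, was higher with 8 than with 4 S genes. Just outside, in cells with 3 S genes, Pclaf, Ung and Mcm2 were at 185, 36.2 and 157 CPM. The number of detected genes goes with depth, and the part of depth in these orders was not tested.

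Whether Smc3 dose goes with the number of S-phase cells was examined next. Members made up 26.9%, 23.1% and 23.2% of gated B cells (wt/wt) and 27.8%, 13.1% and 21.1% (wt/-). The groups overlapped, and the low value of 13.1%, from 160 cells, had an exact 95% binomial interval of 8.31% to 19.4%, which covers counting error only. The means were 24.4% ± 2.18 and 20.7% ± 7.33 (SD, n = 3 each), a difference of -3.75 percentage points (exact two-sided permutation p = 0.5). Without Smc3 wt/- replicate 2 the difference was 0.0141 points (exact permutation p = 1). As a share of all retained barcodes, members were 16.1%, 16.3% and 15.0% against 19.5%, 0.571% and 15.1%, with p = 0.8 in the exact permutation test. Per G2/M cell there were 0.584, 0.481 and 0.453 S-phase cells (wt/wt) and 0.533, 0.600 and 0.422 (wt/-), again overlapping (difference of the log2 ratio 0.03, exact permutation p = 0.9). With 3 against 3 libraries the smallest p of this test is 0.1, and with 3 against 2 it is 0.2, so no share could pass 0.05.

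**Figure D4:**
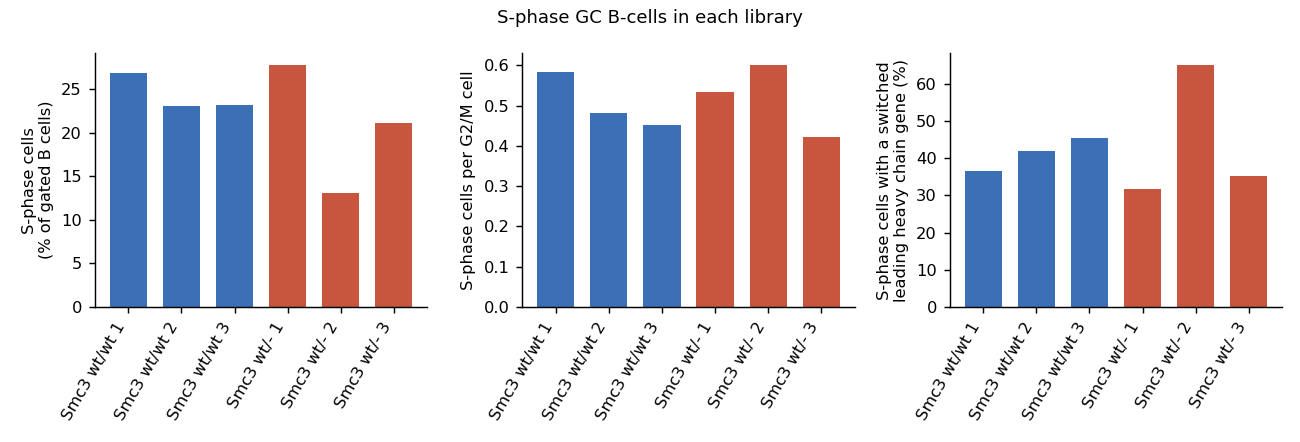
Share of S-phase cells among gated B cells in percent, number of S-phase cells per G2/M cell, and percent of S-phase cells with a switched leading heavy chain gene, by library (blue Smc3 wt/wt, red Smc3 wt/-). Bars are single libraries without error. Smc3 wt/- replicate 2 has the lowest share (13.1%). Its switched share (65.0%) is not read, as the background in Cd3 cells of that library was 100%.

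Class switching, the exchange of the heavy chain constant region, was read from the heavy chain constant gene with most UMIs in each member. Shares are of cells with 1 leading gene, which left out members with a tie or no such UMI, 1 in Smc3 wt/- replicate 2 and 8 to 42 in each other library. Cells with Cd3 and no B cell transcripts, which make no heavy chain, gave the background. In Smc3 wt/- replicate 2 the IgA gene Igha led in 140 of 140 such cells (median 1899 UMIs) and in 13 of the 20 members with a leading gene (65.0%, median 4087 UMIs). How much of the members' reading was background was not tested, so the switched share of this library is given but not read. In the other libraries a switched gene led in 5.41% to 20% of Cd3 cells (median 1200 to 1993 UMIs), and in 36.5%, 42.0% and 45.5% (wt/wt) and 31.9% and 35.3% (wt/-, replicates 1 and 3) of members. The difference of means was -7.76 percentage points over these 5 libraries (exact two-sided permutation p = 0.2, the smallest the test allows), with both Smc3 wt/- libraries below all Smc3 wt/wt libraries. With Smc3 wt/- replicate 2 it was 2.70 (exact permutation p = 1). IgM (Ighm) led in 62.8%, 58.0% and 54.3% (wt/wt) and in 68.1% and 64.7% (wt/-) of members. Ighg1 led in 9.62%, 26.3% and 21.5% and in 10.3% and 17.1%. Igha led in 0.142% to 3.20% of members of these libraries and in 0% to 12.1% of their Cd3 cells.

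The targeted gene Smc3 (chr19:53600398-53645833, plus strand, GRCm38) differed between the genotypes by less than the spread between libraries. It was at 177, 143 and 126 CPM (wt/wt) and 139, 106 and 143 CPM (wt/-). The groups overlapped, and the difference was -0.09 ± 0.16, with a 95% interval of -0.42 to 0.24 and an adjusted p of 0.9998 (edgeR). According to the methods the deleted part is exon 4, and tags at the 3′ end also count transcripts that lack it, so this value does not check the labels. The other core genes differed by -0.19 ± 0.18 (Smc1a), -0.16 ± 0.18 (Rad21), -0.15 ± 0.19 (Stag1) and -0.18 ± 0.19 (Stag2), with overlapping libraries. Wapl, the cohesin release factor, was at 167, 114 and 118 CPM (wt/wt) and 107, 70.3 and 96.3 CPM (wt/-). These did not overlap, as in 7.55% of all genes, and the difference of -0.39 ± 0.17 had an adjusted p of 0.9998 (edgeR).

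Of 8626 genes tested between the genotypes in the members, 2 passed an adjusted p of 0.05 in edgeR, or 0.0232% (1 higher and 1 lower in Smc3 wt/-, each 0.0116%), with 243 at an unadjusted p under 0.05. On counts simulated with no genotype difference the same edgeR test made more calls than this. DESeq2 passed 0, with 15 at an unadjusted p under 0.05, and without Smc3 wt/- replicate 2 edgeR passed 0. Of 236 tested list genes, 0 passed and 8 were at an unadjusted p under 0.05 in edgeR. Licensing genes had a median of 0.06, fork genes of 0.03, histones of -0.10 and cohesin core genes of -0.16, beside -0.01 over all genes. Mitotic genes outside the rule had a median of 0.22, with 15 of 16 above 0 and none past the threshold, where 48.7% of all tested genes were above 0. The summed list overlapped, at 577 to 835 CPM (wt/wt) and 575 to 874 CPM (wt/-). The median was 0.26 without Smc3 wt/- replicate 2 and 0.05 after thinning, each with 13 of 16 above 0.

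A test of whether the difference between S-phase and non-cycling cells depended on genotype passed 6 of 7862 genes, or 0.0763%, of which 2 were positive (0.0254%) and 4 negative (0.0509%). The 4 negative ones were globin genes, and no gene of DNA replication or cohesin was among the 6.

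Ifi27 (chr12:103434211-103440239, plus strand), an interferon-inducible gene, was higher in Smc3 wt/- members. It was at 34.98, 40.99 and 48.4 CPM (wt/wt) and 143, 106 and 85.6 CPM (wt/-), from 21, 169 and 175 and from 280, 9 and 319 UMIs. All Smc3 wt/- libraries were above all Smc3 wt/wt libraries. The log2 fold change was 1.33 ± 0.20 (adjusted p = 0.0200, edgeR). Nt5e (chr9:88327197-88372092, plus strand), which encodes the ecto-5′-nucleotidase CD73, was lower, at 41.6, 32.99 and 22.1 CPM (wt/wt) and 10.2, 23.4 and 6.98 CPM (wt/-). These libraries overlapped, so that it was outside the rule for named genes and is named after its values were seen. Its log2 fold change was -1.83 ± 0.29 (adjusted p = 0.0262, edgeR). Neither gene passed without Smc3 wt/- replicate 2 (adjusted p = 0.0892 for both, edgeR), in DESeq2, after thinning or with library sex as a covariate. The log2 fold changes there were 1.33, 1.36, 1.11 and 1.20 for Ifi27 and -1.89, -1.78, -1.20 and -1.40 for Nt5e. Without Smc3 wt/wt replicate 2 the adjusted p was 0.148 for Ifi27 and 0.271 for Nt5e (edgeR). Ifi27 also fell short without Smc3 wt/- replicate 1 (adjusted p = 0.142) and Nt5e without Smc3 wt/- replicate 3 (adjusted p = 0.734). Both passed in other edgeR fits, among them that with doublets removed (adjusted p = 0.00928 each). With the replicate number as a block, which is not a paired design, the adjusted p was 7.2e-08 for Ifi27 and 7.7e-06 for Nt5e (edgeR).

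**Figure D5:**
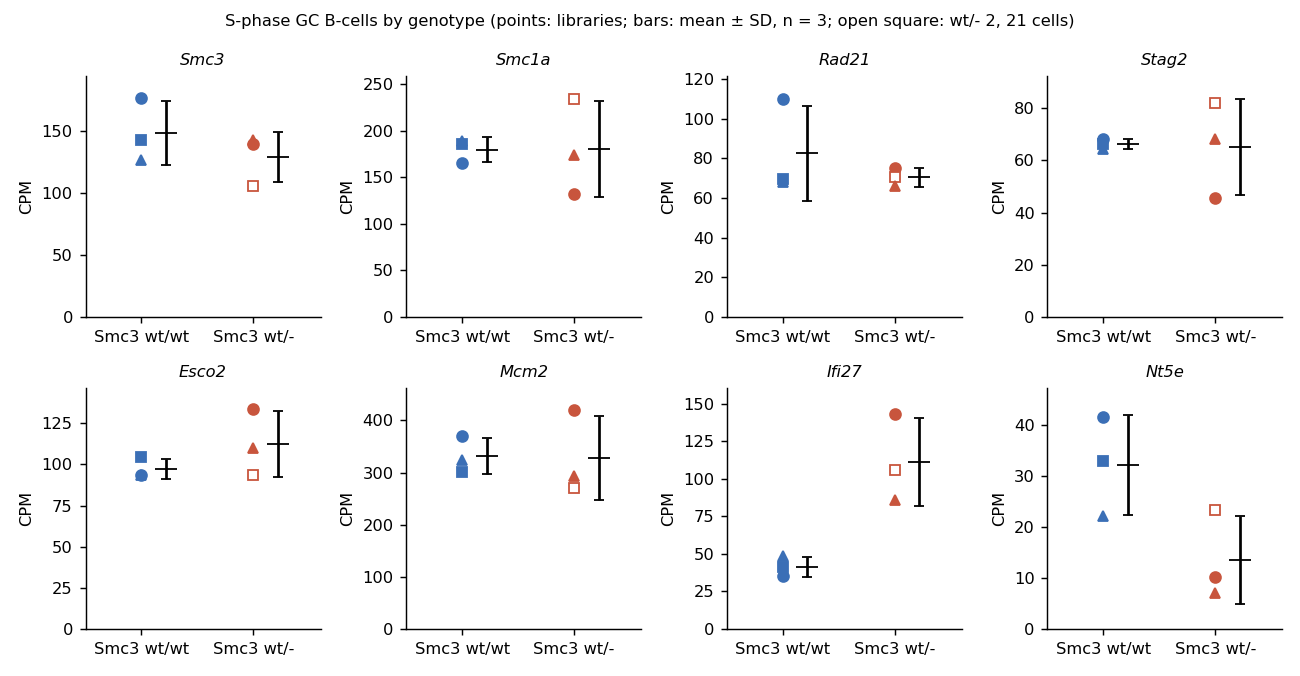
Levels of 8 genes in S-phase GC B-cells in CPM (vertical axes) by genotype (horizontal axes). Points are libraries, the open square is Smc3 wt/- replicate 2 with 21 cells, and bars show the mean ± SD of 3 libraries. The libraries overlap for Smc3, Smc1a, Rad21, Stag2, Esco2 and Mcm2, do not overlap for Ifi27, and overlap for Nt5e through Smc3 wt/- replicate 2.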

How the data were processed

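Single cell 3′ RNA-seq was analysed for 6 libraries of mouse GC B-cells. The authors deposited whole-number UMI counts per gene and barcode, made with Cell Ranger (3.0.2 per the file headers) and not normalized. The submitters' processing notes name mm10, R 4.0.2 and Seurat 4.0.0, and the additional wild-type libraries of the study were not analysed here. Values of a few genes are not reported here. Members, classes and gene lists were chosen with earlier results of these data known.

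Of 22939 barcodes (156055938 UMIs), 21568 were retained. Gates were applied in turn to B cell transcripts (20113 left), Ly6d (14373), Cd3 (14218), immunoglobulin (13625), Myc (12446), G2/M genes (6295) and S genes (2896). UMIs were summed per library and class, and given as CPM of the class sum. Sums were fitted with edgeR 4.0.16 in R 4.3.3 (TMM, filterByExpr, quasi-likelihood test, Benjamini-Hochberg adjustment over all tested genes), with the library as a block between classes and no covariate between genotypes. Genes of the rule, immunoglobulin and mitochondrial genes were left out of the tests. Shares were compared by exact two-sided permutation tests in scipy 1.17.1. Doublets were kept, and an alternative left out the 802 highest Scrublet scores (scanpy 1.11.5, 0.8% per 1000 barcodes). Fits were tested on simulated counts, in which the edgeR test between genotypes also called unchanged genes.

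Named were genes of the lists, the 10 highest and 10 lowest differences from non-cycling cells among genes past 0.05 against both classes, in 1 direction in 6 libraries with at least 50 CPM, and genes past 0.05 between genotypes without overlap. Alternatives were DESeq2 1.42.0, RLE size factors, no low-count filter, the replicate number as a block, library sex from Y-linked transcripts as a covariate, doublets removed, thinning to 2000 UMIs, gating and measuring on separate UMIs, other gates (200 genes and 20% mitochondrial UMIs, 3 or 5 S genes, a looser non-cycling class) and each library left out. Gene positions come from GENCODE vM21 (GRCm38) and promoters from RefSeq (GRCm38.p6).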

Additional observations from a re-analysis of the deposited data

Results flagged for a closer look

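The difference between S-phase and non-cycling cells differed between the genotypes for 6 of 7862 genes (0.0763%) in an edgeR interaction test, with 284 genes at an unadjusted p under 0.05. A negative value means a lower ratio of S-phase to non-cycling cells in Smc3 wt/-. All 4 genes with a negative value encode globin chains, with log2 differences of -5.82 for Hbb-bs, -6.38 for Hba-a1, -5.45 for Hba-a2 and -2.27 for Hbb-bt. Hbb-bs was at 15.4, 73.96 and 22.9 CPM (wt/wt) and 0, 13773 and 2041 CPM (wt/-) in non-cycling cells, and at 18.3, 58.2 and 39.02 CPM (wt/wt) and 0, 188 and 38.4 CPM (wt/-) in S-phase cells. The high values were thus in the non-cycling cells of Smc3 wt/- replicates 2 and 3, and Smc3 wt/- replicate 1 had none. The erythroid list summed to 91.1 to 34165 CPM over the non-cycling libraries, and its part in these differences was not tested. All 4 globin differences also passed without Smc3 wt/- replicate 2, and in DESeq2 3 passed and Hbb-bt did not (adjusted p = 0.9999).

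Cst3, which encodes cystatin C, had a log2 difference of 0.80 (adjusted p = 0.00192, edgeR), but its call was lost in several alternatives. The adjusted p was 0.0756 without Smc3 wt/- replicate 2, 0.9996 without Smc3 wt/- replicate 3 and 0.9999 in DESeq2. Without Smc3 wt/wt replicate 2 the log2 difference was 0.18 (adjusted p = 0.9993), and after thinning 0.12 (adjusted p = 0.9993). S100a10, a partner of annexin A2, had a log2 difference of 2.79 (adjusted p = 0.0108, edgeR). Its level in S-phase cells was 3.33, 0.243 and 3.87 CPM (wt/wt) and 9.72, 328 and 1.88 CPM (wt/-), so that Smc3 wt/- replicate 2 decided it, and without that library its log2 difference was 1.52 and its adjusted p 1.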

How the results depend on the processing

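The limits are those of 3 libraries per genotype, of which Smc3 wt/- replicate 2 gave 21 members, and of classes formed from detected genes, which move with depth. The number of genes past the threshold between genotypes, 2, was 0 in DESeq2, 0 with library sex as a covariate, 1 after thinning to 2000 UMIs and 17 without a low-count filter (9 higher and 8 lower). Over the fits that leave out a library it ranged from 0 to 9: 0 without Smc3 wt/wt replicate 2 or Smc3 wt/- replicate 2, 1 without Smc3 wt/- replicate 1 or 3, 9 without Smc3 wt/wt replicate 1 and 8 without Smc3 wt/wt replicate 3. Restricted to cells with a GC transcript and without Smc3 wt/- replicate 2 it was 0, an alternative chosen after seeing the data. The adjusted p of Ifi27 ranged from 3.2e-09 to 0.264 and that of Nt5e from 1.51e-08 to 0.99996. A replicate block gave 26 genes (13 higher and 13 lower), and 18 without Smc3 wt/- replicate 2 (7 higher and 11 lower), also added after seeing the data. Deviations of libraries with the same number correlated at 0.141, 0.0565 and 0.0766, each the highest for its library, and the labels do not say that a number marks a shared mouse or day, so the block is not a paired design.

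The genotype difference in the log2 number of S-phase cells per G2/M cell, 0.03, was -0.0255 without doublets, -0.0919 after thinning, -0.0026 with 200 genes and 20% mitochondrial UMIs and -0.0235 with at least 5 S genes, and ranged from -0.0851 to 0.169 over the fits without a library, with -0.0035 without Smc3 wt/wt replicate 2 and -0.0476 without Smc3 wt/wt replicate 3. That in switched members, 2.70 points, was -0.687 after thinning and -1.78 with at least 5 S genes, and ranged from -7.76 to 8.80 without a library. All of these but -7.76 include Smc3 wt/- replicate 2. In the other libraries the switched share after thinning was 41.6%, 37.8% and 39.6% (wt/wt) and 27.9% and 29.7% (wt/-, replicates 1 and 3). With at least 5 S genes it was 39.6%, 41.2% and 45.4% (wt/wt) and 32.2% and 35.3% (wt/-). The difference in the share of retained barcodes ranged from -7.97 to 1.47 and in that of gated cells from -7.30 to 0.0141, both highest without Smc3 wt/- replicate 2. The log2 fold change of Smc3 ranged from -0.21 to -0.02 without a library and was 0.0021 after thinning. Among other genes of the cohesin lists, some small differences changed sign. Smc1a ranged from -0.356 without Smc3 wt/- replicate 3 to 0.0479 without Smc3 wt/- replicate 1. Rad21 was at 0.0175 and Esco2 at -0.0595 after thinning. Stag1 was at 0.0256 with the replicate block and 0.0549 with that block and without Smc3 wt/- replicate 2. Without 1 library Stag1 ranged from -0.436 to 0.0491 and Stag2 from -0.55 to 0.0896. Nipbl, at -0.115 in the main fit, was at 0.0199 with the replicate block and 0.0466 without Smc3 wt/wt replicate 3. The interaction count of 6 was 3 in DESeq2 and 4 to 8 without a library.

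Between classes, 2838 to 3637 genes passed relative to non-cycling and 3006 to 3819 relative to G2/M cells when a library was left out. Of the refitted differences of genes named for a class difference (63 relative to non-cycling and those past the threshold relative to G2/M cells), 1745 kept direction and side of the threshold, 31 fell short of it and 3 passed it. Among those past the threshold relative to G2/M cells, 4 changed sign after thinning: Tk1 (0.32), Smc3 (0.10), Esco2 (0.11) and H2-Aa (-0.014). Genes short of the threshold are not in this count. The cause of these changes was not tested.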

Other observations

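Only 9 genes were lower in S-phase cells than in both other classes with the same direction in all 6 libraries and a mean of at least 50 CPM, and their differences were small. Among them were Atf7ip, Dok3, Son, Gpx1, Selenok, Mcrs1, Ifi209 and Ubb. Gpx1, which reduces peroxides with glutathione, was at 381, 349 and 339.5 CPM (wt/wt) and 475, 516 and 368 CPM (wt/-), with log2 fold changes of -0.37 relative to non-cycling and -0.32 relative to G2/M cells. Ubb, a ubiquitin gene, was -0.22 relative to non-cycling and -0.29 relative to G2/M cells. These classes are those of the rule, so the values are descriptions.

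Dark zone genes had no common order. Foxp1, a transcription factor of dark zone and naive B-cells, was -0.55 ± 0.06 relative to non-cycling cells and 0.57 ± 0.05 relative to G2/M cells (0.31 after thinning). Polh, the polymerase that writes mutations at A:T pairs, was at 0 to 3.49 CPM in members and -2.06 ± 0.22 relative to G2/M cells (-1.20 on separate UMIs). Cxcr4, the receptor that holds cells in the dark zone, was at 12.7 to 36.6 CPM. Of 7 dark zone genes, 2 were higher and 3 lower than in non-cycling cells, and 2 higher and 4 lower than in G2/M cells.

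Of 8 genes that the study singles out, 5 had enough UMIs to be tested between classes. Kmt2d, a histone methyltransferase, was at 0 to 19.99 CPM and -0.71 ± 0.17 relative to non-cycling cells. Btk, a kinase of the B cell receptor pathway, was at 82.1 to 107 CPM, with differences of -0.17 and 0.10 that did not pass. Tet2 was at 0 to 4.998 CPM, Dusp4 at 0 to 13.3 CPM and Prdm1, the regulator of plasma cell fate, at 0 to 1.02 CPM in members. Xbp1, another plasma cell regulator but not among these 8 genes, was at 99.95 to 128 CPM in members of all libraries.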
